A study of Homo sapiens with 6 samples.

Results

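The calcitonin receptor family and its receptor activity-modifying proteins (RAMPs) were followed through 6 RNA-seq libraries of adrenocortical carcinoma cells. The family was taken as 7 genes by name, out of 57341 named genes in the count table: the receptors CALCR and CALCRL, the accessory proteins RAMP1, RAMP2 and RAMP3, and the ligand genes CALCA and CALCB. The study compared H295R, an established human cell line derived from an adrenocortical carcinoma, with H295R-PM-Ptc+, cells of the same line sorted by flow cytometry for the Hedgehog receptor Patched at the plasma membrane and then expanded in culture. Both groups were grown in the same DMEM/F12-based medium without a further treatment, and each was represented by 3 libraries numbered 1 to 3. The libraries held between 23264403 and 25813247 counts assigned to genes. H295R-PM-Ptc+ is a sorted and regrown population of a single line, and nothing in the sources used here states that the 3 libraries of a group came from separate sorts, so that the p-values measure the spread between these libraries.

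CALCR and CALCRL are class B1 G protein-coupled receptors that respond to peptide hormones and mainly raise cyclic AMP through the stimulatory G protein. The RAMPs are single-pass membrane proteins that set which peptide the receptors bind. CALCR alone is the calcitonin receptor and with a RAMP it is a receptor for amylin, whereas CALCRL needs a RAMP to reach the cell surface and is a receptor for calcitonin gene-related peptide with RAMP1 and for adrenomedullin with RAMP2 or RAMP3. CALCA is spliced to give either calcitonin or a calcitonin gene-related peptide, and CALCB gives a second calcitonin gene-related peptide. In the adrenal cortex the corticotropin receptor MC2R uses the same cyclic AMP route to drive steroid synthesis, and adrenomedullin was first isolated from a tumour of the adrenal medulla.

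PTCH1, which encodes Patched and on which the cells had been sorted, was examined first as a check of the labels. PTCH1 (chromosome 9, 95442980 to 95517057, hg38) had 441, 559 and 579 counts in the libraries labelled H295R and 248, 326 and 319 in those labelled H295R-PM-Ptc+. It was thus lower in every library labelled as sorted for the protein, with a log2 fold change of -0.81 (SE 0.147, edgeR quasi-likelihood adjusted p = 0.0207), which goes against the label. PTCH1 stayed lower whichever library was left out (log2 fold change -0.91 to -0.67), and it passed the edgeR test in 3 of 6 such cases, with an adjusted p of 0.0799 and 0.0921 without H295R replicates 2 and 3 and 0.0618 without H295R-PM-Ptc+ replicate 2. The study's own normalized values carry the opposite group name for each replicate code. Under those names PTCH1 is higher in the cells sorted for its protein. The counts alone do not settle the naming, but PTCH1 goes with those names and not with the labels. Every direction below is therefore that of the libraries as labelled, and would turn if the 2 names were exchanged. Transcripts of the adrenal cortex were present in both groups: 9 of the 10 adrenocortical markers passed the filter on low counts, NR5A1, the transcription factor that specifies steroidogenic cells, had 8273 to 9729 counts, and the marker CYP11B1 had 0 to 3.

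The sequence upstream of CALCR is shown because CALCR was the only member to pass the test and is annotated with 2 start sites, and that of CALCA because the gene gave no count and its window holds a short cyclic AMP element. The windows run from 250 to 11 bases before each RefSeq start site (GRCh38.p14), 5′ to 3′ on the strand of the gene. Capitals mark the GC box GGGCGG for CALCR and the short cyclic AMP element TGACG for CALCA.

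CALCR, upstream start at base 93574724, chr7:93574735-93574974, minus strand: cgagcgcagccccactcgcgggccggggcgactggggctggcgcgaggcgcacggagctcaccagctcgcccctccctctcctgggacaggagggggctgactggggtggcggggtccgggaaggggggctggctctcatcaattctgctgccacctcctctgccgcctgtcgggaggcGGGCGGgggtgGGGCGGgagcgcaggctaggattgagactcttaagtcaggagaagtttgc
CALCR, second start at base 93559810, chr7:93559821-93560060, minus strand: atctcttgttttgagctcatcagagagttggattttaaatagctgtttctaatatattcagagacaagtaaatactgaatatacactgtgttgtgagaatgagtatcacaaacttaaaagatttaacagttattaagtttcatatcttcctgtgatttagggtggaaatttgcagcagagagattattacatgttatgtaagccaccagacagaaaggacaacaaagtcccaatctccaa
CALCA, start at base 14972351, chr11:14972362-14972601, minus strand: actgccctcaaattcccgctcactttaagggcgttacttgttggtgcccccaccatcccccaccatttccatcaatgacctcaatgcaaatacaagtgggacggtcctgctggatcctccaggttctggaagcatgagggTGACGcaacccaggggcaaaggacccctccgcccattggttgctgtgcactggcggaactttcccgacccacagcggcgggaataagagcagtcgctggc

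The 2 CALCR windows differed in composition. The upstream window had 71.3% G and C, 19 CG pairs and 2 GC boxes, 71 and 60 bases before the start, while the second window, which lies within an intron of CALCR by the exons in the files, had 33.3% G and C, no CG pair and none of the 5 motifs. Over 35116 windows of all genes the median was 57.9% G and C with 10 CG pairs. The counts were summed per gene and could not tell which of the 2 starts was used. The CALCA window was at the median for both measures, with 1 GC box 82 bases and 1 TGACG 110 bases before the start. GGGCGG was present in 41.4% of all windows and TGACG in 20.5%, searched on both strands. The full cyclic AMP element TGACGTCA (1.57% of all windows, overlapping TGACG), the NR5A1 site AAGGTCA (3.31%) and the TATA box TATAAA (10.6%) were in none of the windows of these genes. Windows were also found for CALCRL, with 44.2% G and C and 1 CG pair, and for RAMP3, with 74.6%, 17 CG pairs and 3 GC boxes. RAMP1, RAMP2 and CALCB had no entry.

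The first question was which members were transcribed and whether they differed between the groups. CALCR was the highest member per length in each of the 6 libraries and had about a 2-fold lower level under the label H295R-PM-Ptc+. RAMP2 was next, RAMP1 and CALCRL were low, RAMP3 was close to absent and neither ligand gene gave a count. Of the 7 members, 3 passed the filter on low counts (CALCR, CALCRL and RAMP2) and 1, CALCR, passed the test at an adjusted p under 0.05. The edgeR test called 624 of 16710 genes, or 3.73%, of which 404 (2.42%) had the higher level in H295R-PM-Ptc+ and 220 (1.32%) the lower.

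CALCR (chromosome 7, 93424487 to 93574730, minus strand, 18 exon blocks joining to 4042 bases) had 467, 788 and 750 counts in H295R replicates 1 to 3 and 248, 392 and 328 in H295R-PM-Ptc+ replicates 1 to 3. All 3 libraries labelled H295R-PM-Ptc+ lay below all 3 labelled H295R, and replicate 1 was the lowest of each group. Scaled to a common library size (CPM), the libraries had 19.5, 31.0 and 30.3 against 9.70, 15.8 and 14.2. The mean was 27.0 ± 6.44 CPM in H295R and 13.2 ± 3.14 CPM in H295R-PM-Ptc+ (SD, n = 3 each). The log2 fold change was -1.03 (SE 0.213, edgeR adjusted p = 0.0347), a level 2.04-fold lower. Over all tested genes, 11.2% had groups that did not overlap with the lower values in H295R-PM-Ptc+.

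Same-numbered libraries gave a narrow range for CALCR. Its CPM in H295R-PM-Ptc+ was 49.6%, 50.8% and 46.7% of that in the H295R library with the same number. Each pair thus showed close to the same difference, although the level varied between numbers by more than 1.5 times. CALCR held rank 64 among the 220 genes called lower when these were ordered by log2 fold change, and 66 of them were beyond 2-fold. The call depended on which libraries entered the fit. When a library was left out, the log2 fold change stayed between -1.22 and -0.86, but CALCR passed the edgeR test in 1 of 6 cases. The adjusted p was 0.00273 without H295R replicate 1, 0.121 and 0.124 without H295R replicates 2 and 3, and 0.0630, 0.0579 and 0.103 without H295R-PM-Ptc+ replicates 1, 2 and 3. With the replicate number as a block the log2 fold change of CALCR kept its direction at an edgeR adjusted p of 5.68e-08, in a fit that called 10.4% of all tested genes lower. CALCR had been picked out by the study on these same libraries under the opposite group names, where it is higher in H295R-PM-Ptc+. Its call here is not independent evidence of a difference.

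**Figure D1:**
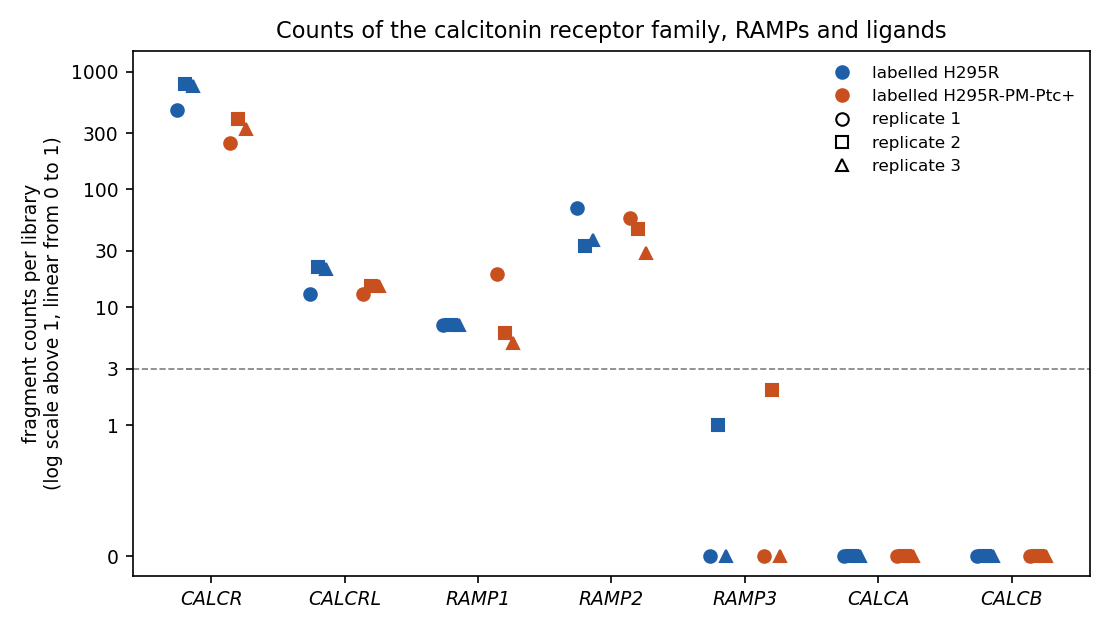
Fragment counts of the 7 members, with 1 point per library, colour for the labelled group and symbol for the replicate number; the axis is logarithmic above 1 and linear from 0 to 1, and the dashed line marks 3 counts. The groups of CALCR are apart, at 467 to 788 against 248 to 392 counts, those of CALCRL and RAMP2 overlap, and CALCA and CALCB lie at 0.

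CALCRL (chromosome 2, 187343129 to 187448460, minus strand, 18 exon blocks joining to 6144 bases), the receptor shared by calcitonin gene-related peptide and adrenomedullin, had 13, 22 and 21 counts in H295R and 13, 15 and 15 in H295R-PM-Ptc+. The groups overlapped, and each pair of same-numbered libraries had the lower CPM in H295R-PM-Ptc+. The mean was 0.753 ± 0.181 CPM against 0.587 ± 0.0712 CPM (SD, n = 3 each), with a log2 fold change of -0.37 (SE 0.285, edgeR adjusted p = 0.577). Only 2.28% of the tested genes had a lower level than CALCRL, whereas 53.5% had a lower level than CALCR.

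RAMP2 (chromosome 17, 42758447 to 42763041, plus strand, 6 exon blocks joining to 1148 bases), the partner that turns CALCRL into an adrenomedullin receptor, had 70, 33 and 37 counts in H295R and 57, 46 and 29 in H295R-PM-Ptc+. Replicate 1 was the highest of both groups and the groups overlapped. The log2 fold change was -0.09 (SE 0.337, edgeR adjusted p = 0.933). Leaving out H295R replicate 1 turned it to 0.35, and leaving out replicate 3 of H295R-PM-Ptc+ turned it to 0.09, so that no direction can be given. The antisense gene RAMP2-AS1, which overlaps RAMP2 on the opposite strand, had 53, 25 and 37 counts against 46, 42 and 40, and the counting used strand.

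RAMP1 (chromosome 2, 237858893 to 237912114, plus strand, 6 exon blocks joining to 1234 bases), the partner that turns CALCRL into a receptor for calcitonin gene-related peptide, had 7 counts in each H295R library and 19, 6 and 5 in H295R-PM-Ptc+. A single library, H295R-PM-Ptc+ replicate 1, stood above the others. The exact Poisson 95% interval of 19 counts was 11.4 to 29.7 and that of 7 counts was 2.81 to 14.4, so that these overlapped; such intervals cover counting error only. RAMP1 was too low for the edgeR test, and an exact two-sided permutation test of its CPM gave p = 1, where the smallest p of 3 against 3 libraries is 0.1.

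RAMP3 (chromosome 7, 45157791 to 45186302, plus strand), the other adrenomedullin partner, had 1 count in H295R replicate 2, 2 counts in H295R-PM-Ptc+ replicate 2 and 0 in the other 4 libraries. Both groups were below a floor of 3 counts per library, which is about the upper end of a one-sided 95% interval for a count of 0, and no fold change is given. CALCA (chromosome 11, 14966668 to 14972354, minus strand) and CALCB (chromosome 11, 14904997 to 15082342, plus strand, a span that encloses CALCA on the other strand) had 0 counts in all 6 libraries. The floor of 3 counts corresponds to 0.117 to 0.130 CPM per library, and the two-sided exact Poisson 95% interval of a count of 0 reaches 3.69 counts. Calcitonin and the calcitonin gene-related peptides were thus not detected as transcripts of these cells at this depth. The microRNA gene MIR489, which lies within CALCR, also had 0 counts, and the other one, MIR653, had 2 counts in 1 library.

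To compare members with each other, the CPM was divided by the exon length in kilobases (RPKM). CALCR had 6.67 ± 1.59 RPKM in H295R and 3.27 ± 0.778 in H295R-PM-Ptc+, RAMP2 1.66 ± 0.775 and 1.55 ± 0.429, RAMP1 0.230 ± 0.00706 and 0.324 ± 0.241, and CALCRL 0.123 ± 0.0295 and 0.0955 ± 0.0116 (SD, n = 3 each). CALCR was above RAMP2, RAMP2 above RAMP1 and RAMP1 above CALCRL within each of the 6 libraries. The order of the 4 detected members per length was therefore the same in both groups, with the receptor that needs a RAMP below both of its detected partners. The place of RAMP1 above CALCRL depended on the length scaling. By counts RAMP1 was below CALCRL in every library except H295R-PM-Ptc+ replicate 1, which had 19 against 13. RAMP3, CALCA and CALCB cannot be ordered at this depth.

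The balance within the family was then compared over libraries, with 5 measures and exact two-sided permutation tests. The log2 ratio of CALCR to CALCRL per length was 5.77, 5.77 and 5.76 in H295R and 4.86, 5.31 and 5.05 in H295R-PM-Ptc+. The 3 H295R libraries were nearly equal and all were above the 3 of H295R-PM-Ptc+. The mean fell from 5.77 ± 0.0042 to 5.07 ± 0.228, or from a 54.4-fold to a 33.7-fold excess of CALCR, a difference of -0.69 with p = 0.1 in the exact permutation test, the smallest it can give, and 0.5 after adjustment over the 5 measures. CALCRL had 13 to 22 counts in a library, with exact Poisson 95% intervals of 6.92 to 22.2 for 13 counts and 13.8 to 33.3 for 22. Counting error of CALCRL is thus much wider than the spread of the 3 H295R ratios. Their closeness is not read as a trait of the group, and the part of counting error in the difference was not tested.

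The log2 ratio of the summed RAMPs to CALCRL was 3.91 ± 0.925 in H295R and 4.26 ± 0.678 in H295R-PM-Ptc+, a difference of 0.34 (exact permutation p = 0.6, adjusted p = 0.875, n = 3 each) that ranged from 0.0019 without H295R-PM-Ptc+ replicate 1 to 0.876 without H295R replicate 1. RAMP2 made up 91.5%, 81.9% and 85.0% of the RAMP sum in H295R and 76.3%, 86.5% and 86.2% in H295R-PM-Ptc+. RAMP2 was thus the main RAMP of each library, and the groups overlapped. RAMP1 made up 13.2% ± 4.11 and 16.0% ± 6.85 (SD, n = 3 each), a difference of 2.79 percentage points that turned to -1.05 without H295R-PM-Ptc+ replicate 1.

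**Figure D2:**
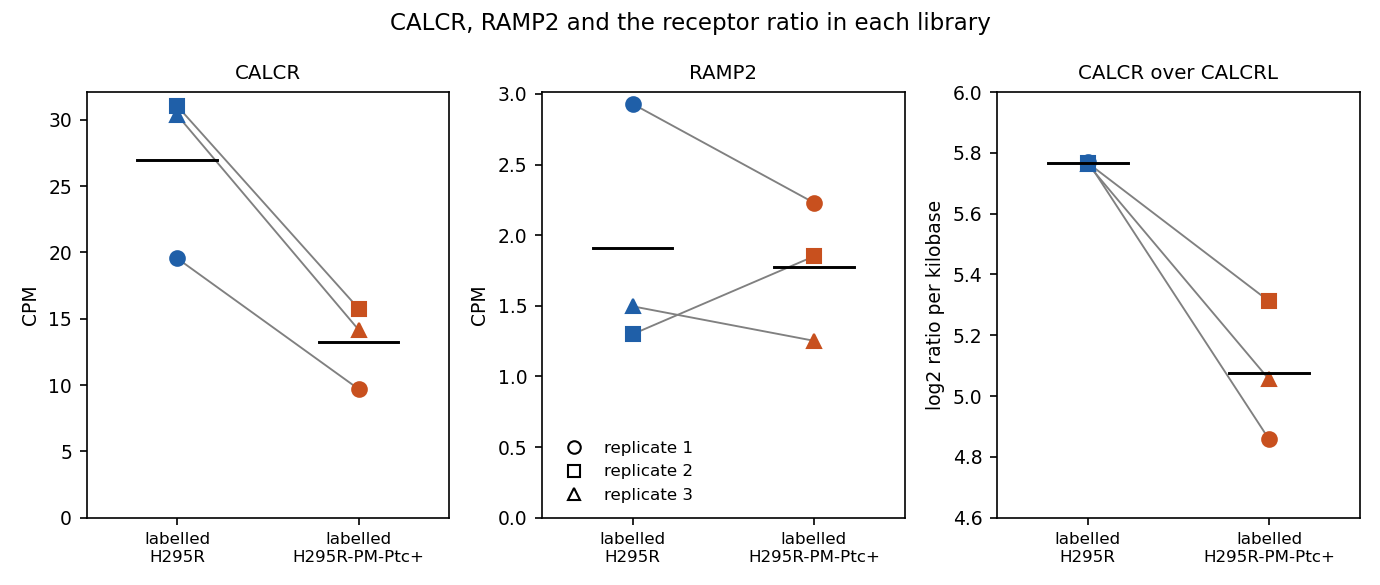
CPM of CALCR, CPM of RAMP2 and the log2 ratio of CALCR to CALCRL per length in the 6 libraries, with grey lines joining libraries of the same replicate number and black bars at the group means; the ratio axis does not start at 0. The 3 CALCR lines fall to 46.7% to 50.8% of the H295R value, the RAMP2 lines run in different directions, and the 3 H295R ratios lie together at 5.76 to 5.77.

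CALCR was next set beside the other class B1 receptors, which share its structure and respond to other peptide hormones. Of these 13 receptors, PTH2R, a parathyroid hormone receptor, was the highest at 4.21 ± 0.350 RPKM in H295R and 4.07 ± 0.247 in H295R-PM-Ptc+ (SD, n = 3 each; log2 fold change -0.05, edgeR adjusted p = 0.876). CALCR was above PTH2R in 3 of 3 libraries labelled H295R and below it in 3 of 3 labelled H295R-PM-Ptc+. The log2 ratio of CALCR to PTH2R per length was 0.07, 0.90 and 0.94 in H295R and -0.85, -0.05 and -0.13 in H295R-PM-Ptc+. The change of order was noticed after the values were seen and is a description without a test, and in H295R replicate 1 it depended on the length scaling, since the ratio of counts there was -0.05 on the log2 scale. CALCRL held rank 4 of the 15 receptors in each group by mean level. VIPR2, SCTR, GCGR, GLP1R and GLP2R had 0 counts in all libraries.

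Of the other class B1 receptors, 2 passed the filter and 0 passed the edgeR test, with 0 at an unadjusted p under 0.05 and 0 by DESeq2 or limma-voom. Without the filter, 2 of 8 had an unadjusted edgeR p under 0.05 and 0 were called. GIPR, too low for the filter, had 4, 1 and 6 counts in H295R and 10, 10 and 11 in H295R-PM-Ptc+. VIPR1, a receptor for vasoactive intestinal peptide, had 156, 285 and 242 counts in H295R and 223, 384 and 299 in H295R-PM-Ptc+, higher in each pair of same-numbered libraries. Its log2 fold change was 0.43 (edgeR adjusted p = 0.417), and with the replicate number as a block the adjusted p was 0.00239, where 22.5% of all tested genes were called.

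**Figure D3:**
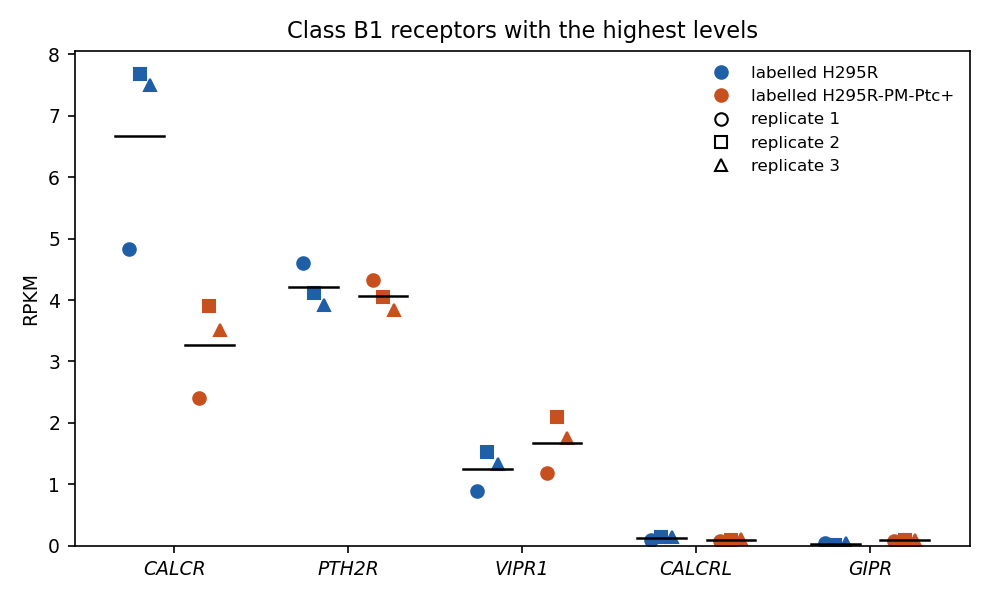
RPKM of the 5 class B1 receptors with the highest levels, with 1 point per library and black bars at the group means. CALCR and PTH2R are the 2 highest, and CALCR lies above PTH2R in the libraries labelled H295R and below it in those labelled H295R-PM-Ptc+.

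The remaining ligands, partners, enzymes and transducers of the pathway were examined in 5 lists of 51 genes in all, including the class B1 receptors. The lists were chosen with earlier results of these data known, so that their share of called genes is not independent evidence. Of the 51 genes, 31 passed the filter, 3 were called higher and 2 lower by edgeR, or 16.1% against 3.73% of all tested genes, with a median log2 fold change of 0.10 against 0.00094 for all tested genes. With the replicate number as a block, 8 were called higher and 4 lower, and in that fit 22.5% of all tested genes were called.

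Of the 4 other ligands, only ADM5, an adrenomedullin-like gene, passed the filter, and 0 passed the edgeR test, with 0 at an unadjusted p under 0.05 and 0 by DESeq2 or limma-voom. ADM5 had 43, 35 and 31 counts in H295R and 48, 49 and 49 in H295R-PM-Ptc+ (log2 fold change 0.43, edgeR adjusted p = 0.313). ADM, which encodes adrenomedullin itself, had 10, 5 and 2 counts against 3, 3 and 1, and IAPP, which encodes amylin, had 4, 3 and 2 against 2, 1 and 3. ADM2 had 9, 7 and 11 against 15, 9 and 5. Ligand transcripts of the family were thus few in both groups.

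Among the 3 receptor partners and scavengers, ACKR3 rose. ACKR3 (chromosome 2, 236567787 to 236582358), an atypical chemokine receptor that also takes up adrenomedullin, had 38, 27 and 43 counts in H295R and 115, 90 and 111 in H295R-PM-Ptc+, without overlap, as held for 12.4% of all tested genes with the higher values in H295R-PM-Ptc+. It was 2.94-fold higher (log2 fold change 1.55, SE 0.213, edgeR adjusted p = 0.00510), and it was called whichever library was left out, at log2 fold changes from 1.37 to 1.69. CRCP, a protein of the calcitonin gene-related peptide receptor complex that is also a subunit of RNA polymerase III, was the highest of this list at 12.1 ± 0.279 RPKM in H295R and 12.3 ± 0.251 in H295R-PM-Ptc+ (SD, n = 3 each; log2 fold change 0.03, edgeR adjusted p = 0.905). GPR182, another atypical receptor, had 0 counts.

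Of the 8 genes that process or break down the peptides, 6 passed the filter and 2 were called higher, against 2.42% of all tested genes. PAM, which amidates the C terminus of calcitonin, amylin and adrenomedullin, had 8118, 7875 and 7686 counts in H295R and 12059, 10608 and 9784 in H295R-PM-Ptc+ (log2 fold change 0.46, SE 0.0812, edgeR adjusted p = 0.0180). ECE1, an endopeptidase, rose by 0.38 on the log2 scale (SE 0.0833, edgeR adjusted p = 0.0417). Both had groups without overlap (12.4% of all tested genes in that direction), and each lost its call when certain libraries were left out, with PAM called in 2 and ECE1 in 1 of 6 cases. MME, the peptidase neprilysin, was the highest of the list at 79.6 ± 6.23 RPKM in H295R and 100.2 ± 4.18 in H295R-PM-Ptc+ (SD, n = 3 each; log2 fold change 0.33, edgeR adjusted p = 0.0733, and 0.000365 with the replicate number as a block, a fit that called 22.5% of all tested genes). PCSK1 and PCSK2, the convertases that cut prohormones, had at most 1 and 2 counts in a library.

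Of the 23 transducers of the G protein and cyclic AMP route, 20 passed the filter and 2 were called, both lower, against 1.32% of all tested genes called lower. ADCY2, an adenylyl cyclase, had 162, 111 and 124 counts in H295R and 19, 16 and 17 in H295R-PM-Ptc+, a level 7.57-fold lower (log2 fold change -2.92, SE 0.232, edgeR adjusted p = 0.000393), and it was called whichever library was left out. GNAL, an alpha subunit that stimulates adenylyl cyclase, had 780, 894 and 841 counts against 653, 659 and 629 (log2 fold change -0.36, SE 0.0743, edgeR adjusted p = 0.0335), and was called in 1 of 6 cases with a library left out. GNAS, the main stimulatory alpha subunit, was the highest of the list at 80.6 ± 2.64 RPKM in H295R and 74.0 ± 0.434 in H295R-PM-Ptc+ (SD, n = 3 each; log2 fold change -0.12, edgeR adjusted p = 0.442, and 0.0485 with the replicate number as a block). With that block, 3 transducers were called higher and 4 lower, or 7 of the 20 tested, where 22.5% of all tested genes were called.

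**Figure D4:**
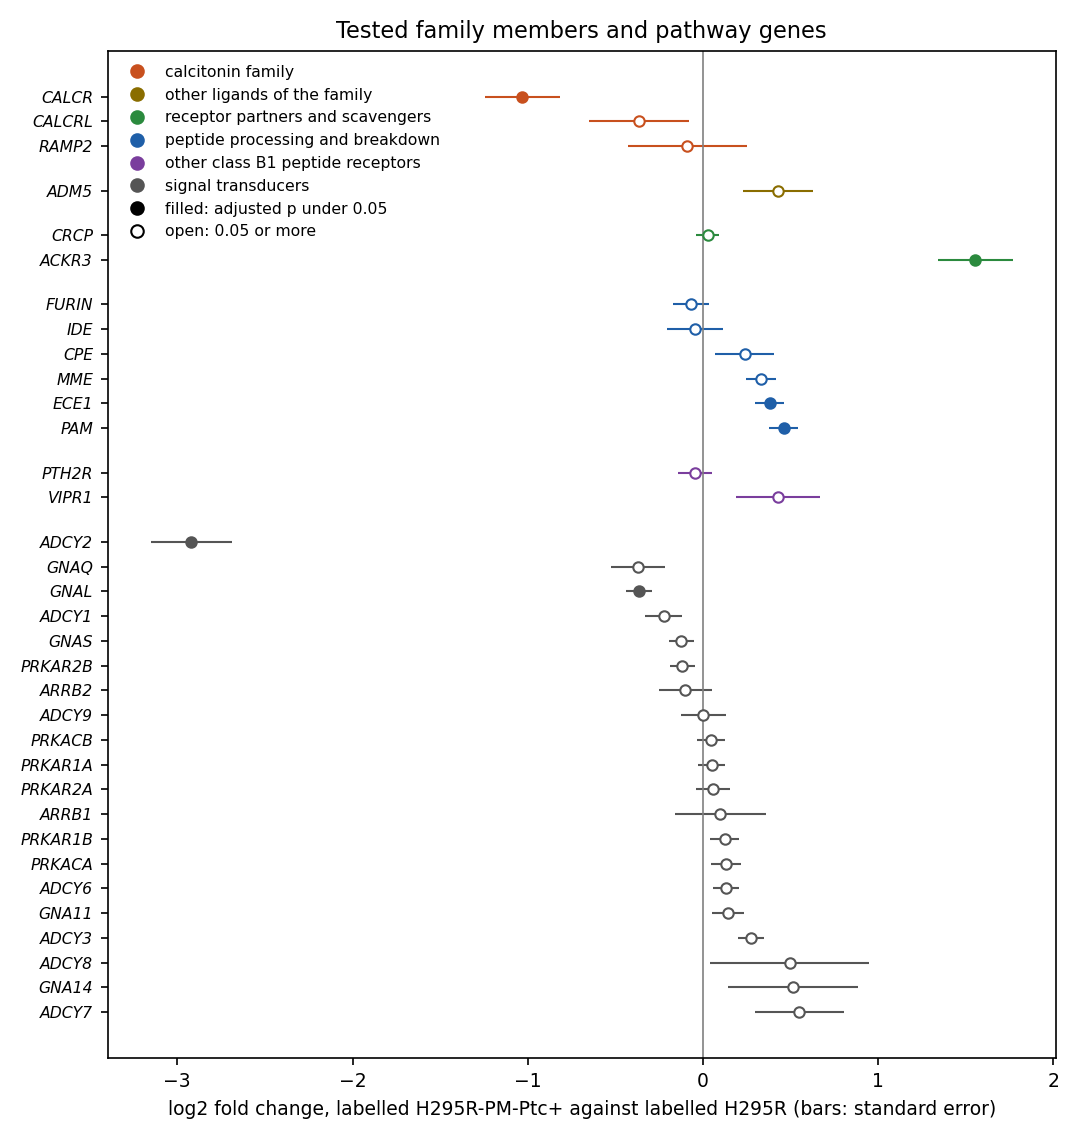
Log2 fold change, labelled H295R-PM-Ptc+ against labelled H295R, of each tested family member and pathway gene, coloured by list; bars are standard errors and filled points have an adjusted p under 0.05. ADCY2 at -2.92 and CALCR at -1.03 lie lowest, and ACKR3 at 1.55 lies highest.

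The genes whose profile over the 6 libraries was most like that of each member were found from log2 CPM centred on its mean, with the root mean square difference over 6 libraries as the measure. For CALCR, whose own profile had a root mean square of 0.581, they were GUCY1A2, a subunit of soluble guanylyl cyclase (difference 0.120, log2 fold change -0.99), GHR, the growth hormone receptor (0.130 and -0.93), and LDLRAD4, a membrane protein (0.139 and -1.32). GUCY1A2 and LDLRAD4 passed the edgeR test (adjusted p = 0.0108 and 0.0356) and GHR did not (adjusted p = 0.102). With a library left out, GUCY1A2 was called in 4, LDLRAD4 in 1 and GHR in 1 of 6 cases, with edgeR adjusted p up to 0.0544, 0.129 and 0.288. GHR was also called by DESeq2 (adjusted p = 0.0121), by edgeR without a filter (0.00151) and with the replicate number as a block (1.62e-05). For CALCRL they were MBOAT2, GALNT13 and STK39, at 0.0219, 0.0282 and 0.0330 against an own root mean square of 0.170. For RAMP2 they were MLXIPL, ATP8B3 and RP1-293L8.2, at 0.0756, 0.0824 and 0.0909 against 0.345. These lists describe likeness over 6 points, and with 16710 genes to choose from some profiles are close.

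The 5 nearest tested genes on each side of each member were examined for changes shared along the chromosome, 60 genes in all, since CALCA and CALCB have the same 10. Of these 60, edgeR called 5, or 8.33% against 3.73% of all tested genes, and 18 with the replicate number as a block, where 22.5% of all tested genes were called. Around CALCR 7 neighbours had a higher and 3 a lower level, with a median log2 fold change of 0.06, and the 1 called was TFPI2, at 0.76 (edgeR adjusted p = 0.0396). The nearest tested gene upstream of CALCR, AC002075.4, had a log2 fold change of -1.14 (SE 0.418, edgeR adjusted p = 0.193, and 0.0593 with the block), and GNG11 had one of -0.24 (edgeR adjusted p = 0.233, and 0.00720 with the block). With the block 5 neighbours of CALCR were called. SAMD9, SAMD9L and CDK6 were among them, higher at 0.26, 0.25 and 0.22 (edgeR adjusted p with the block 0.00143, 0.00486 and 0.00200). Around CALCRL 4 had a higher and 6 a lower level and only COL3A1 was called by edgeR, at 1.51, and around RAMP1 6 had a higher and 4 a lower level and only ACKR3 was called. Of the neighbours of RAMP2, 7 had a higher and 3 a lower level, with a median log2 fold change of 0.06. Of those of RAMP3, 9 had a higher and 1 a lower level, with a median of 0.28, and with the block 4 were called. Around CALCA and CALCB, 1 neighbour had a higher and 9 a lower level, with a median of -0.10. There PDE3B, a phosphodiesterase that breaks down cyclic AMP, was called lower at -1.57 (edgeR adjusted p = 0.0101) and PLEKHA7 higher at 1.36 (edgeR adjusted p = 0.0269). The neighbours named were chosen after their values were seen.

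CALCRL and RAMP2 are abundant in endothelium, so markers of other cell types were listed beside them. None of the 7 endothelial markers passed the filter, their summed level was 0.551 to 0.753 CPM in H295R and 0.822 to 1.08 CPM in H295R-PM-Ptc+, and TIE1 had 0 counts. Of 4 blood markers 1 passed the filter, with a summed level of 0.647 to 1.14 CPM against 1.10 to 1.37 CPM, and PTPRC had 0 counts. Of 5 fibroblast markers 1 passed, with 8.03 to 9.29 CPM against 9.23 to 11.2 CPM, and LUM had 0 counts. CD14 and COL1A1, the markers that passed, were not called (log2 fold changes 0.38 and 0.21, edgeR adjusted p = 0.536 and 0.455), and no endothelial marker was tested. Without the filter, 1 of 6 endothelial and 1 of 4 fibroblast markers had an unadjusted edgeR p under 0.05 and none was called. Each endothelial marker had at most 11 counts in a library. Summed over the 3 libraries of a group, TEK had 8 counts in H295R and 28 in H295R-PM-Ptc+ and CDH5 2 and 8, whereas PECAM1 had 3 and 2, VWF 4 and 2, KDR 3 and 2, and EMCN 27 and 26. Of the 9 adrenocortical markers tested, 2 were called higher by edgeR, CYP21A2 and SCARB1, against 2.42% of all tested genes, and 5 had a higher and 4 a lower level, with a median log2 fold change of 0.0060. With the replicate number as a block 3 were called higher and 1, CYP11A1, lower, where 22.5% of all tested genes were called. The entry named CYP21A2 runs from 31850614 to 32118110 on chromosome 6, with 42 exon blocks joining to 16093 bases. Whether its counts come from CYP21A2 alone was not tested. The summed level of the list was 1728 to 2076 CPM in H295R and 2294 to 2546 CPM in H295R-PM-Ptc+, of which SCARB1 alone made up a mean of 817 and 1263 CPM. The part of these markers in the CALCR difference was not tested, and in bulk libraries fewer cells with a transcript and less of it per cell cannot be told apart.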

How the data were processed

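Poly(A) RNA of 3 H295R and 3 H295R-PM-Ptc+ libraries was sequenced by the authors, who aligned the reads to GRCh38 (hg38) with STAR 2.4.0a and counted them per gene name with strand-specific featureCounts (Subread 1.5.0-p3 in the submitters' processing notes). The deposited values are raw, whole-number counts of fragments (read pairs) per gene, with multimapping reads kept by their primary alignment. The deposited gene table also gives the exon length in bases, used here for RPKM. A total of 1 nameless entry, holding 0% of the counts, was left out.

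Groups followed the labels. Counts were scaled by TMM and filtered with filterByExpr, and the groups were compared with the quasi-likelihood test of edgeR 4.0.16 in R 4.3.3 with Benjamini-Hochberg adjustment over all 16710 tested genes. A gene is called at an adjusted p under 0.05. CPM and RPKM used the TMM-scaled library sizes. Alternatives were DESeq2 1.42.0, limma-voom (limma 3.58.1), RLE size factors, no filter, at least 10 counts in every library, the replicate number as a block, and leaving out each library. The code was tested on simulated data: a first criterion on all changed genes was not met, because most changed genes of low expression were missed, and the criterion was then set for edgeR on well expressed genes with a limit on false calls, which DESeq2 would not have met. Of the calls in the simulated data, 4.85% were false for edgeR, 9.04% for edgeR with the replicate block and 13.1% for DESeq2. Figures were drawn with Python 3.11.15, pandas 2.3.3 and matplotlib 3.10.9.

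The replicate numbers are those in the labels. Deviations from the group means correlated at 0.594, 0.405 and 0.325 for libraries with the same number and at -0.443 to 0.211 for the others. Between numbers 2 and 3 they correlated at 0.211 and 0.154, so that mainly replicate 1 stood apart. The numbers were taken to pair the libraries, which for 2 and 3 is less clear. Genes named were all members, called genes and the highest gene of each pathway list, the 3 genes nearest in profile to each member whose counts reached 10 in all libraries, and PTCH1. Other list genes, markers and neighbours were named after their values were seen. The members and lists were chosen with earlier results of these data known. Sequences are from RefSeq, where 4 of 7 members matched.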

Additional observations from a re-analysis of the deposited data

How the results depend on the processing

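CALCR kept its direction under each alternative run, and its call under DESeq2, limma-voom, RLE size factors, both filters and the replicate block (adjusted p from 5.68e-08 to 0.0423). With 1 library left out at a time, the number of members called was 0 to 1. The number of pathway genes called was 5, 12 with the replicate block and 2 to 7 with a library left out. The called neighbours numbered 5, 18 with the block and 2 to 7 with a library left out. Over all genes, 624 were called, 1111 without a filter on low counts, 3758 with the block and 219 to 810 with a library left out. The block changed no call of a member. Some directions turned when a library was left out: the log2 fold change of RAMP2 ranged from -0.31 to 0.35, MLXIPL from -0.15 to 0.34, ATP8B3 from -0.28 to 0.23 and RP1-293L8.2 from -0.41 to 0.24. The difference in the share of the RAMP sum ranged from -1.05 to 5.54 percentage points for RAMP1, from -5.27 to 0.204 for RAMP2 and from -0.665 to 1.01 for RAMP3. The cause of these changes was not tested, beyond the fewer samples of each fit. Depth limits RAMP1, RAMP3 and CALCRL, whose counts reach at most 22 in a library, and gives only an upper limit for CALCA and CALCB.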
